A study of Rattus norvegicus with 12 samples.

Results

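Genes of the tumour necrosis factor (TNF) superfamily were followed in cultured cardiac fibroblasts of newborn rats in which Yap and Wwtr1 (also called TAZ), co-activators of transcription, had been knocked down. The 10 genes were taken by name and comprised 8 receptors, namely Tnfrsf11b, Tnfrsf12a, Tnfrsf1a, Tnfrsf1b, Tnfrsf21, Tnfrsf19, Fas and Cd40, and 2 ligands, Tnfsf10 and Tnfsf13b. All 10 were present among the 12271 genes of the deposited table. Tnfrsf11b, which encodes osteoprotegerin, was chosen by its low normalized counts in the knockdown libraries, so its levels and differences are described with no test.

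Fibroblasts were isolated from ventricles of Sprague Dawley rats at postnatal day 2 and transfected with siRNAs at 25 nM, and RNA was collected 48 h later per the labels. The study's methods instead count those 48 h from a change of medium made after transfection. The cells received universal negative control siRNAs (control), Yap siRNAs, Wwtr1 siRNAs, or both sets (double knockdown), with 3 libraries in each of the 4 groups. The study's methods state that the procedure was repeated with separate litters, so each library represents pooled animals. Every library came from transfected cells. For the double knockdown samples the siRNA label lists the Wwtr1 siRNAs alone, whereas the title names both targets. The series' design text calls the cells myocytes, whereas the titles and the cell type label call them fibroblasts.

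TNF family ligands are trimeric proteins, many of them made at the cell surface and released by proteases, and they act by clustering their receptors. The receptors recruit TRAF and death domain adaptors that lead to NF-kappaB signalling or to caspase activation, and some members, osteoprotegerin among them, are secreted decoys that bind ligand without signalling. In the heart these pathways are known for roles in inflammation, cell survival and remodelling after injury, and fibroblasts are both a source and a target of the ligands. Yap and Wwtr1 act in the nucleus mainly through TEAD transcription factors, and the comparison of 1 knockdown with both addresses how far the co-activators overlap.

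Values are normalized counts, that is, read counts divided by a size factor for each library, and library totals were 33886920 to 41059839 reads. Yap1 was at 3042, 3776 and 2984 normalized counts in controls and at 532, 576 and 625 after Yap siRNA, and Wwtr1 was at 2364, 2565 and 2280 in controls and at 524, 550 and 637 after Wwtr1 siRNA. Under both siRNAs Yap1 was at 713, 739 and 1474 and Wwtr1 at 818, 731 and 1056. Each of these values was above every library of the single knockdown of that gene, and replicate 3 kept the most. The means were 29.9% (Yap1) and 36.1% (Wwtr1) of control, against 17.7% and 23.7% in the single knockdowns. Comparisons of double with single knockdowns are thus not at equal remaining levels of the targets. Double knockdown replicate 3 also stood apart from its replicates over all genes, and results that rest on it are given without it. All 10 fibroblast markers searched were present and none was at 0 in a whole group. Markers of macrophages (11 of 11), endothelial cells (8 of 8), smooth muscle cells and pericytes (7 of 7) and cardiomyocytes (9 of 10) were also present, none of them at 0 in all 3 libraries of a group. In bulk RNA, fewer cells of a type and less RNA per cell cannot be told apart.

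The promoter windows of 4 members are shown because they held the core of the interferon-stimulated response element, and a list of interferon-induced genes is described after the ligands. Windows run from 250 bases before to 50 after the annotated transcript start in RefSeq (GRCr8) and are written 5′ to 3′ on the gene's strand, with every match to a searched motif in capitals. They lie at chr5:162387362-162387661 (minus strand) for Tnfrsf1b, chr1:241211905-241212204 (plus) for Fas, chr2:112136689-112136988 (plus) for Tnfsf10 and chr16:86194450-86194749 (minus) for Tnfsf13b.
Tnfrsf1b: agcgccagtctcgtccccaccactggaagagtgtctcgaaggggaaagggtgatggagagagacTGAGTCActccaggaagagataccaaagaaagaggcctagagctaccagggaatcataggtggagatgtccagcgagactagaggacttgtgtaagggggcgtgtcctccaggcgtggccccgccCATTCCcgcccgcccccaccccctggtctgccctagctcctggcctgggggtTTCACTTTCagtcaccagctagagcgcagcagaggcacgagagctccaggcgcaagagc
Fas: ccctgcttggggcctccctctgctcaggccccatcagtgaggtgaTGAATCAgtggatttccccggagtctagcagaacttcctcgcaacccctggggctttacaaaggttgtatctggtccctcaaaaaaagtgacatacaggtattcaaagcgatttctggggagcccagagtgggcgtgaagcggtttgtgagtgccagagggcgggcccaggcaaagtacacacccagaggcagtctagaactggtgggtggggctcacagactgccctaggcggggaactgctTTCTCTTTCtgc
Tnfsf10: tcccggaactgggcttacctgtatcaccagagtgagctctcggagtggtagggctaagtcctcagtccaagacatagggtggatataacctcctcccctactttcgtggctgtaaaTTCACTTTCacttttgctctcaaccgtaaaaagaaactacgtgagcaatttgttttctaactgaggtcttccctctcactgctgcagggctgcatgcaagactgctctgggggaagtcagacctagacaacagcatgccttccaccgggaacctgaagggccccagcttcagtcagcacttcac
Tnfsf13b: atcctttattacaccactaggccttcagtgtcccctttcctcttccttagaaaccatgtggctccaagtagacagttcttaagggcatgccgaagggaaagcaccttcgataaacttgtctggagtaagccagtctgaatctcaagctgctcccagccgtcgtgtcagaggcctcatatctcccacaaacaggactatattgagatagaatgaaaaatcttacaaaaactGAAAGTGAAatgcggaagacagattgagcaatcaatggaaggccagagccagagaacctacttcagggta

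The motifs searched, on both strands, were GAAANNGAA for the interferon element core, TGANTCA for AP-1, GGAATG for TEAD and GGANTTTCC for NF-kappaB. The interferon core was found in 4 of the 8 member windows in the table and in 9.71% of all 33469 windows. It lay 134 to 126 bases before the start of Tnfsf10, 20 to 12 before that of Tnfsf13b, 9 to 1 before that of Tnfrsf1b and 39 to 47 after that of Fas. AP-1 was matched in Fas and Tnfrsf1b (7.33% of all windows), TEAD in Tnfrsf1b (14.2%) and NF-kappaB in no member window (1.28%). No match overlapped another, and each match describes letters in the window, not a bound site. The windows of Tnfrsf12a, Tnfrsf1a, Tnfrsf21 and Tnfrsf19 held none of these letters.

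**Figure D1:**
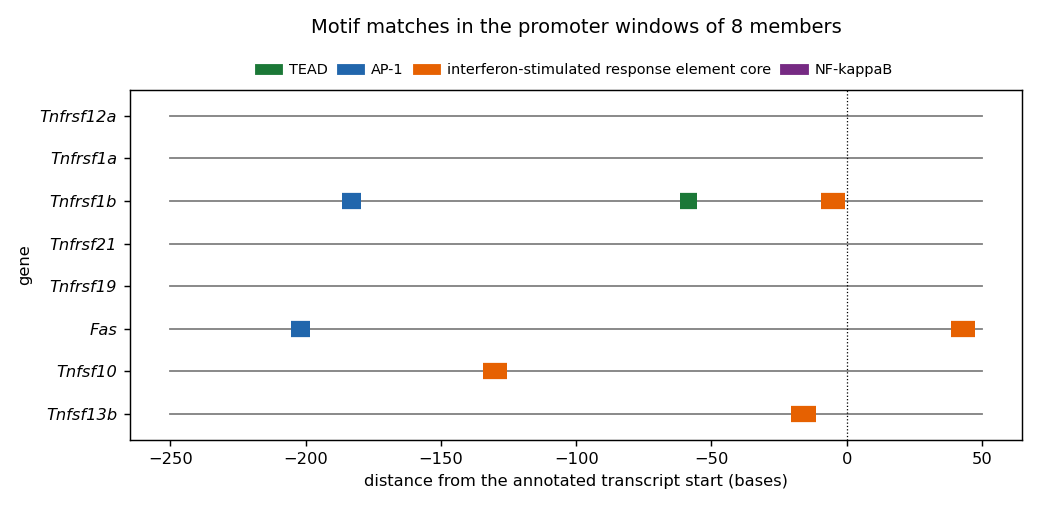
Positions of motif matches (coloured blocks, by motif) in the promoter windows of 8 members, with distance from the annotated transcript start in bases on the x axis. The interferon element core is in 4 windows, those of Tnfrsf1b, Fas, Tnfsf10 and Tnfsf13b, and NF-kappaB is in none.

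In the double knockdown a few of the members moved, in a share near that of all genes. Tnfrsf1a and Tnfrsf1b, the receptors of TNF itself, rose, and Tnfrsf12a, the receptor of TWEAK, fell. Differences were tested with limma on log2(normalized count + 1) over 11871 genes, and a gene was called at a Benjamini-Hochberg adjusted p under 0.05. Of the 8 members tested besides Tnfrsf11b, these 3 were called in the double knockdown against control, where 32.8% of all genes tested were called. No other member was called there by limma or by edgeR (3 called), and DESeq2 added Tnfrsf21 (4 called). The 8 include Tnfsf13b, which averaged 1.67 normalized counts in controls and whose tests support nothing. It was in none of these calls, and the later counts of 8 members include it too.

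With Yap siRNA alone limma called 0 of the 8, against 4.80% of all genes. It gave 3 an unadjusted p under 0.05, namely Tnfrsf12a, Tnfrsf1a and Tnfsf13b, and the value of Tnfsf13b supports nothing. With Wwtr1 siRNA alone it also called 0 of 8, against 8.96% of all genes, with 2 at an unadjusted p under 0.05. edgeR and DESeq2 called 0 in both comparisons. With the replicate number as a block and the double knockdown libraries left out, 3 members were called in each, namely Tnfrsf12a, Tnfrsf1a and Tnfrsf1b after Yap siRNA and Tnfrsf12a, Tnfrsf1b and Tnfrsf21 after Wwtr1 siRNA. Under that fit 16.0% of all genes were called after Yap siRNA and 21.3% after Wwtr1 siRNA, so the calls rose over all genes and not in the members alone. With the block over all 12 libraries no member was called in either.

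Osteoprotegerin binds and neutralises RANKL (the product of Tnfsf11) and TRAIL (Tnfsf10). Its transcript, Tnfrsf11b, was at 10521, 11506 and 10793 normalized counts in controls. It was at 5280, 5556 and 6445 after Yap siRNA and at 5853, 5519 and 6111 after Wwtr1 siRNA. Each single knockdown thus had all 3 libraries below all 3 of control, and the single knockdowns overlapped each other. Cells with both siRNAs had 2474, 2465 and 3461, below every other library.

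The mean of Tnfrsf11b was 10940 ± 509 (SD, n = 3) in controls, 5760 ± 608 after Yap siRNA, 5828 ± 297 after Wwtr1 siRNA and 2800 ± 572 with both. The single knockdowns were at 52.7% and 53.3% of the control mean and the double knockdown at 25.6%. On the log2 scale the differences from control were -0.93, -0.91 and -1.98 (SE 0.12 each), and the last is a 3.95-fold lower level. Same-numbered libraries differed by -0.99, -1.05 and -0.74 after Yap siRNA and by -0.85, -1.06 and -0.82 after Wwtr1 siRNA.

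Adding the second siRNA lowered Tnfrsf11b about as far as the first had. The double knockdown differed by -1.05 from Yap siRNA and by -1.07 from Wwtr1 siRNA on the log2 scale (SE 0.12 each). The 2 single knockdowns differed from each other by -0.02 (SE 0.12), less than the spread between replicates. The departure of the double knockdown from the sum of the single log2 differences was -0.15 (SE 0.17). Without double knockdown replicate 3 the difference from control was -2.15 and this departure was -0.31, the far end of the range of -0.31 to -0.06 over fits leaving out a library.

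**Figure D2:**
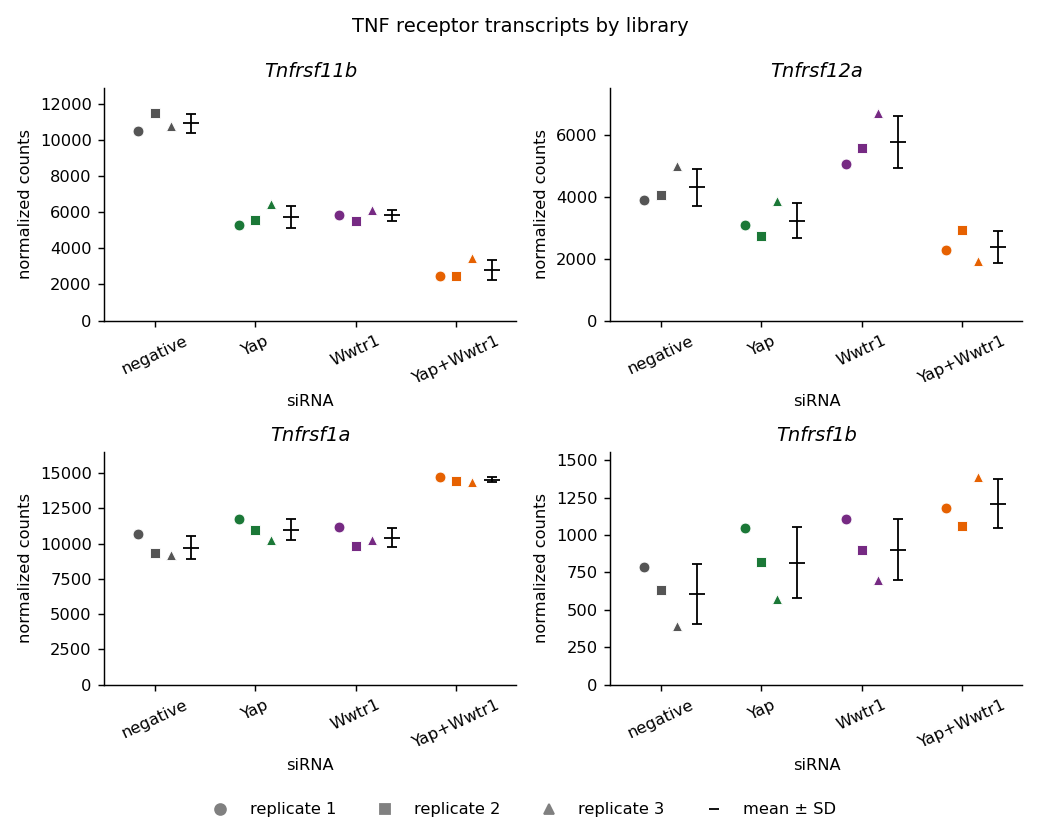
Normalized counts (y axis) of Tnfrsf11b, Tnfrsf12a, Tnfrsf1a and Tnfrsf1b in each library by siRNA group (x axis), with points for libraries and bars for the mean ± SD of 3. Tnfrsf11b steps down from 10940 to 5760 and 5828 in the single knockdowns and to 2800 in the double knockdown, whereas Tnfrsf12a lies lower after Yap siRNA (3228) and higher after Wwtr1 siRNA (5770) than in controls (4304).

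The genes whose pattern was most like that of Tnfrsf11b were sought among 10102 genes averaging 100 normalized counts or more, by the root mean square difference of centred log2 values over the 12 libraries. Afap1l2, which encodes an actin filament-associated adaptor, was closest at 0.15, with group means of 4985 (control), 3108 (Yap siRNA), 2978 (Wwtr1 siRNA) and 1463 (double knockdown) normalized counts. Ceacam4, a member of the carcinoembryonic antigen family, followed at 0.18, Scd, a fatty acid desaturase, and Vldlr, a lipoprotein receptor, at 0.23 each, and Ankrd1, an ankyrin repeat protein of muscle and a long-used readout of Yap activity, at 0.24. The median over genes was 0.73. Among the other members Tnfrsf12a was nearest at 0.58, and Tnfrsf1b was farthest of the 5 compared at 1.13.

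Tnfrsf11a, which encodes the signalling receptor RANK that osteoprotegerin competes with for ligand, is given although it was singled out after its values were seen. It was low and uneven, at 106, 67.0 and 72.3 normalized counts in controls and at 20.9, 20.9 and 125 in the double knockdown. The high value again came from double knockdown replicate 3. The summed level of 11 macrophage markers was likewise highest there (49395, against 7149 and 14213 in replicates 1 and 2) and, among controls, in replicate 1 (33224, against 25790 and 23026), and their part in the Tnfrsf11a values was not tested. It was not called with all libraries (limma log2 difference -1.05, SE 0.59, adjusted p 0.195) and was called without that library (limma log2 difference -1.89, SE 0.38, adjusted p 0.00316). Tnfsf11 was not analysed here.

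Tnfrsf12a encodes Fn14, the small receptor of the cytokine TWEAK and a gene induced by growth factors and injury. It was at 3876, 4042 and 4993 normalized counts in controls, at 3099, 2743 and 3843 after Yap siRNA, and at 5049, 5567 and 6696 after Wwtr1 siRNA. All 3 Yap siRNA libraries lay below, and all 3 Wwtr1 siRNA libraries above, every control library. With both siRNAs it was at 2286, 2917 and 1909, below every control library and overlapping Yap siRNA only.

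The summed level of 7 smooth muscle and pericyte markers was 97127 to 105086 normalized counts in controls, 86237 to 91051 after Yap siRNA, 133973 to 137614 after Wwtr1 siRNA and 91862 to 115341 with both. In the single knockdowns it thus lay on the same side of control as Tnfrsf12a, whereas in the double knockdown it overlapped control. None of the 7 was at 0 in a whole group, Pdgfrb, which fibroblasts also express, gave most of the sum, and its part in the Tnfrsf12a values was not tested.

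In the double knockdown Tnfrsf12a fell by 45.4% on the fitted scale (log2 -0.87, SE 0.17, limma adjusted p 0.00231, n = 3 per group). The call held in all 12 fits that left out a library each. The single knockdowns differed from control by -0.42 for Yap siRNA (limma adjusted p 0.196) and by 0.42 for Wwtr1 siRNA (limma adjusted p 0.156). With the replicate block and without the double knockdown libraries both passed, at limma adjusted p values of 0.00201 and 0.00141. Same-numbered libraries differed by -0.32, -0.56 and -0.38 after Yap siRNA and by 0.38, 0.46 and 0.42 after Wwtr1 siRNA.

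Yap siRNA against Wwtr1 siRNA called 1 of the 8 members, against 8.79% of all genes, and that member was Tnfrsf12a. With the block and without the double knockdown libraries 2 were called, Tnfrsf12a and Tnfrsf21, against 22.6% of all genes. Tnfrsf12a was 1.79-fold lower after Yap siRNA (log2 -0.84, SE 0.17, limma adjusted p 0.0116). Without Wwtr1 siRNA replicate 3 the adjusted p was 0.0518. The double knockdown was 2.45-fold below Wwtr1 siRNA alone (log2 -1.30, SE 0.17, limma adjusted p 0.000549). The double knockdown differed from Yap siRNA alone by -0.45 (limma adjusted p 0.0996), and leaving out replicate 2 of the double knockdown made this -0.61 (limma adjusted p 0.0434). Leaving out replicate 3 of the double knockdown made it -0.31 (limma adjusted p 0.232).

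The effect of Wwtr1 siRNA on Tnfrsf12a was thus estimated at 0.42 in the absence of Yap siRNA and at -0.45 in its presence. With all libraries and no block limma called neither, and the fits that did call one are given above. The difference between these effects, the interaction of both siRNAs, was -0.88 (SE 0.24, limma adjusted p 0.109, unadjusted p 0.00345). DESeq2 called it at an adjusted p of 0.0164. For the interaction limma called 0 of the 8 members, against 1.03% of all genes, with 2 at an unadjusted p under 0.05, and edgeR called 0 and DESeq2 1. Its ligand Tnfsf12 (TWEAK), singled out after its values were seen, was at 1849, 1429 and 1529 normalized counts in controls and at 1674, 1824 and 2188 in the double knockdown, and was not called (limma log2 difference 0.24, SE 0.12, adjusted p 0.140, or 0.13 with adjusted p 0.396 without replicate 3).

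Tnfrsf1a encodes TNF receptor 1, the widely expressed death domain receptor through which TNF activates NF-kappaB or caspase-8. It was at 10657, 9342 and 9166 normalized counts in controls, at 11757, 10951 and 10245 after Yap siRNA and at 11170, 9836 and 10236 after Wwtr1 siRNA. Both single knockdowns overlapped control. Double knockdown libraries held 14726, 14462 and 14401, above every other library and with the smallest spread of the 4 groups.

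The rise of Tnfrsf1a in the double knockdown was 1.50-fold against control (log2 0.58, SE 0.08, limma adjusted p 0.000193). It was 1.32-fold against Yap siRNA (log2 0.41, limma adjusted p 0.00580) and 1.40-fold against Wwtr1 siRNA (log2 0.48, limma adjusted p 0.00160). Each of the fits that left out a library kept the call against control. The single differences were 0.18 for Yap siRNA (limma adjusted p 0.229) and 0.10 for Wwtr1 siRNA (limma adjusted p 0.475). For Yap siRNA the adjusted p was 0.103 with a replicate block over all 12 libraries and 0.0363 with the block and without the double knockdown libraries. The interaction was 0.31 (SE 0.11, limma adjusted p 0.224).

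When both siRNAs were compared with Yap siRNA alone, Tnfrsf1a was the 1 member of 8 called, against 13.8% of all genes. In the double knockdown against Wwtr1 siRNA 2 of 8 were called, Tnfrsf1a higher and Tnfrsf12a lower, against 19.9% of all genes. Both shares are near those of all genes. DESeq2 called 2 members in each of these comparisons and added Tnfrsf21 in the first (adjusted p 0.0232). The limma difference of Tnfrsf21 there was 0.75 with all libraries and 0.32 without double knockdown replicate 3 (adjusted p 0.209), and no DESeq2 fit was made without that library.

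Tnfrsf1b encodes TNF receptor 2, which lacks a death domain and is most abundant on leukocytes and endothelial cells. It was at 787, 633 and 390 normalized counts in controls, at 1047, 819 and 573 after Yap siRNA, at 1104, 900 and 699 after Wwtr1 siRNA and at 1183, 1059 and 1386 with both. The single knockdowns overlapped control, and the double knockdown lay above all control and Yap siRNA libraries. Within the negative, Yap and Wwtr1 siRNA groups replicate 1 was highest and replicate 3 lowest.

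Tnfrsf1b rose 2.07-fold in the double knockdown (log2 1.05, SE 0.27, limma adjusted p 0.0109), and by 0.95 without replicate 3 (limma adjusted p 0.0292). The single differences of 0.45 for Yap siRNA and 0.61 for Wwtr1 siRNA were not called (limma adjusted p 0.398 and 0.193). With the replicate block and without the double knockdown libraries they were, at limma adjusted p values of 0.00944 and 0.00124. With no block, leaving out 1 library gave 0.16 to 0.68 and 0.33 to 0.83, both lowest without control replicate 3. The double knockdown differed by 0.61 from Yap siRNA (limma adjusted p 0.158) and by 0.44 from Wwtr1 siRNA (limma adjusted p 0.277).

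The summed level of 11 macrophage markers was 33224, 25790 and 23026 normalized counts in controls, 29001, 23155 and 19523 after Yap siRNA, 12045, 20288 and 17772 after Wwtr1 siRNA and 7149, 14213 and 49395 with both. It followed the order of Tnfrsf1b within the negative and Yap siRNA groups and both were highest in replicate 3 of the double knockdown, but the sum was lowest in replicate 1 of that group, where Tnfrsf1b was at 1183. After Wwtr1 siRNA the sum was lowest in replicate 1, where Tnfrsf1b was highest. The interferon-induced genes described below, summed, followed the order of Tnfrsf1b after Yap siRNA (93489, 67858 and 37069) and Wwtr1 siRNA (120991, 82517 and 30456). They did not within controls or the double knockdown. The summed level of 8 endothelial markers was 1140 to 1489 in controls, 1582 to 1834 after Yap siRNA, 1497 to 1557 after Wwtr1 siRNA and 1702 to 2542 with both, and 4 of the 8 rose there. The part of either cell type or of the interferon-induced genes in the Tnfrsf1b result was not tested.

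Tnfrsf21 encodes death receptor 6. It was at 489, 442 and 396 normalized counts in controls, at 434, 334 and 471 after Yap siRNA and at 524, 646 and 692 after Wwtr1 siRNA. The Wwtr1 siRNA libraries lay above all control and Yap siRNA libraries. Under both siRNAs it was at 504, 520 and 1236, and the high value was replicate 3.

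The difference of Tnfrsf21 between double knockdown and control was 0.64 (SE 0.29, limma adjusted p 0.108, DESeq2 adjusted p 0.0298), and 0.22 without replicate 3 (limma adjusted p 0.345). Wwtr1 siRNA differed from control by 0.48 (limma adjusted p 0.339). Yap siRNA differed from Wwtr1 siRNA by -0.59 (limma adjusted p 0.229). With a replicate block over all 12 libraries the adjusted p values of these differences were 0.277 and 0.177, and with the block and without the double knockdown libraries they were 0.0481 and 0.0205. The second also passed without double knockdown replicate 3 alone (limma adjusted p 0.0272). The macrophage marker sum was also highest in double knockdown replicate 3, and its part in this value was not tested.

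Tnfrsf19 encodes TROY, an orphan receptor linked to Wnt signalling in progenitor cells. It was at 31.8, 22.0 and 20.7 normalized counts in controls and at 42.8, 57.1 and 45.7 after Wwtr1 siRNA. Both siRNAs together gave 56.7, 58.5 and 70.2, above every control library. With Yap siRNA it was at 60.4 and 50.3 in replicates 1 and 3 and listed at 0 in replicate 2.

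A value of 0 can be a failed estimate in this table, in which 5 genes were listed at 0 in a library whose replicates were both over 100 normalized counts. The 0 of Tnfrsf19 decided its call in the double knockdown against control. The double knockdown difference of 1.30 (SE 1.17) had a limma adjusted p of 0.424, which was 0.00594 without Yap siRNA replicate 2 and 0.0278 with only the compared groups in the fit. The Yap siRNA difference was -0.79 with all libraries and 1.15 without that library.

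Fas and Cd40 were called in no comparison by limma, edgeR or DESeq2. Fas, the classical death receptor of Fas ligand, was at 426, 512 and 501 normalized counts in controls, 402, 398 and 414 after Yap siRNA, 424, 420 and 478 after Wwtr1 siRNA and 481, 551 and 347 with both. All Yap siRNA libraries lay below all controls, and the double knockdown spanned the range of the controls. Its log2 differences from control were -0.24, -0.12 and -0.08 (SE 0.15 each, lowest limma adjusted p 0.431 for Yap siRNA).

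Cd40, a receptor that relays signals from T cells to antigen-presenting cells and also to stromal cells, was at 67.7, 95.0 and 86.8 normalized counts in controls, 142, 76.0 and 99.5 after Yap siRNA, 72.0, 93.9 and 86.4 after Wwtr1 siRNA and 75.6, 115 and 108 with both. All 4 groups overlapped. Its log2 differences from control were 0.31, 0.02 and 0.25 (SE 0.27 each, limma adjusted p 0.573 for Yap siRNA).

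**Figure D3:**
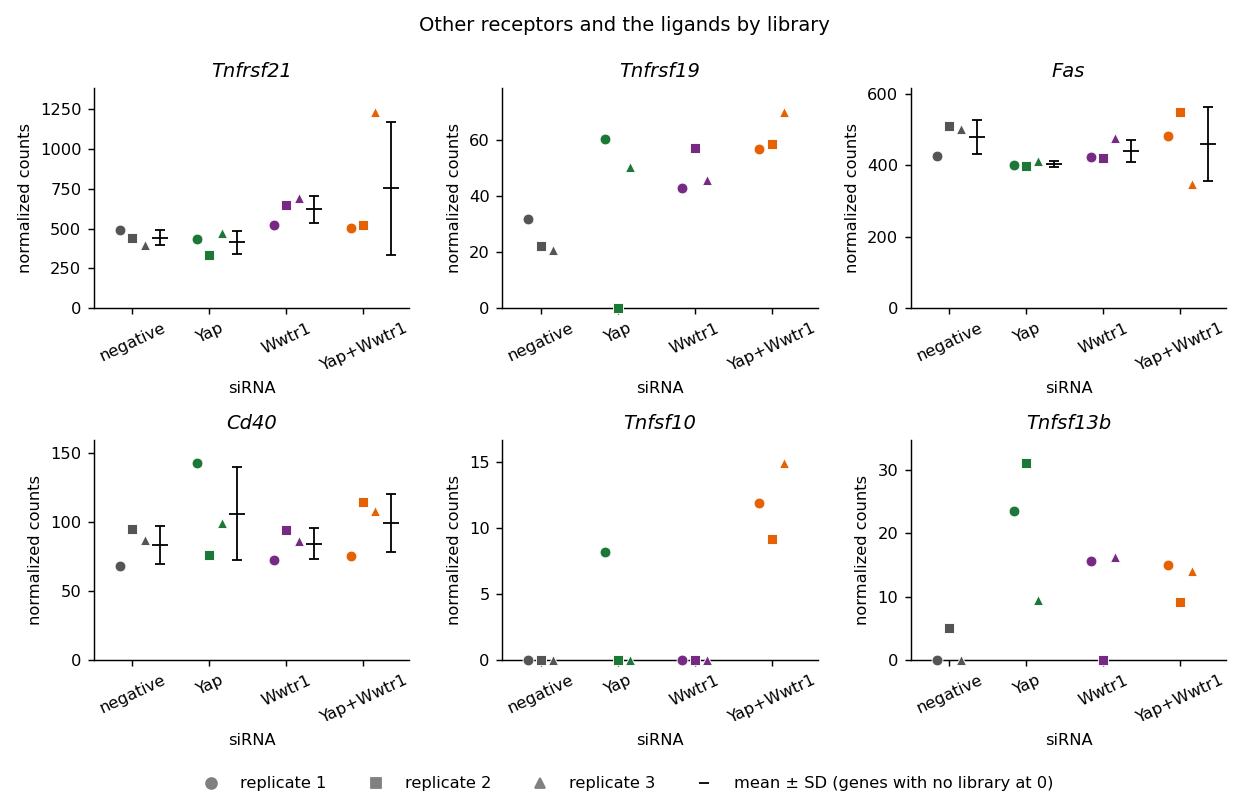
Normalized counts (y axis) of the 4 other receptors and the 2 ligands in each library by siRNA group (x axis), with points for libraries and mean ± SD bars for genes with no library at 0. Tnfsf10 is above 0 in all 3 double knockdown libraries and in 1 other library, and 1236 for Tnfrsf21 and 0 for Tnfrsf19 each come from a single library.

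Tnfsf10 encodes TRAIL, a ligand that triggers death receptors, is bound by osteoprotegerin and is known as an interferon-induced gene. It was listed at 0 in all 3 control and all 3 Wwtr1 siRNA libraries. With Yap siRNA it was at 8.20 in replicate 1 and listed at 0 in replicates 2 and 3. In the double knockdown it was at 11.9, 9.20 and 14.9 normalized counts, from 12, 11 and 17 reads, so its libraries did not overlap those of any other group. Its mean over all libraries was under 10, so it was not among the genes tested, and no fold is given against groups listed at 0.

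Tnfsf13b encodes BAFF, a survival factor of B cells that stromal cells release under interferon. It was listed at 0, at 5.0 and at 0 in controls. It was at 23.6, 31.1 and 9.43 normalized counts after Yap siRNA, at 15.7 and 16.3 with a 0 in replicate 2 after Wwtr1 siRNA, and at 14.9, 9.20 and 14.0 in the double knockdown. All Yap siRNA and double knockdown libraries lay above all control libraries.

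Tnfsf13b averaged 11.6 normalized counts over all libraries but 1.67 in controls, so it passed the minimum of 10 only through the knockdown groups, and its differences from control are given as values that support nothing. No difference was called with all libraries in the fit. The difference was 3.47 for Yap siRNA (SE 1.16, limma adjusted p 0.120), 1.86 for Wwtr1 siRNA (limma adjusted p 0.366) and 2.89 for the double knockdown (limma adjusted p 0.0764). The double knockdown passed without control replicate 2 (limma adjusted p 0.0428) and without Wwtr1 siRNA replicate 2 (limma adjusted p 0.0255), and the latter is a library with a 0. These values come from 5 reads in the control group and 42 in the double knockdown, and log2(normalized count + 1) differences of such low genes depend on the constant added.

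A list of 16 interferon-induced genes is given beside the members whose windows hold the interferon core. Its summed level was 10307 to 16771 normalized counts in controls, 37069 to 93489 after Yap siRNA, 30456 to 120991 after Wwtr1 siRNA and 131042 to 167590 with both. The groups did not overlap control, and the double knockdown lay above both single knockdowns. Of the 16, limma called 16 higher after Yap siRNA, 15 after Wwtr1 siRNA and 16 with both, with median log2 differences of 4.34, 4.34 and 6.14. Of the 4 members with the core, limma with all libraries in the fit called Tnfrsf1b in the double knockdown against control and Fas in no comparison. Tnfsf13b, whose tests support nothing, lay above all controls in every Yap siRNA and double knockdown library and was at 0 in Wwtr1 siRNA replicate 2. Tnfsf10, which was not tested, was at 11.9, 9.20 and 14.9 in the double knockdown. It was at 8.20, 0 and 0 after Yap siRNA and at 0 in every control and Wwtr1 siRNA library. The part of this response in the member results was not tested.

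**Figure D4:**
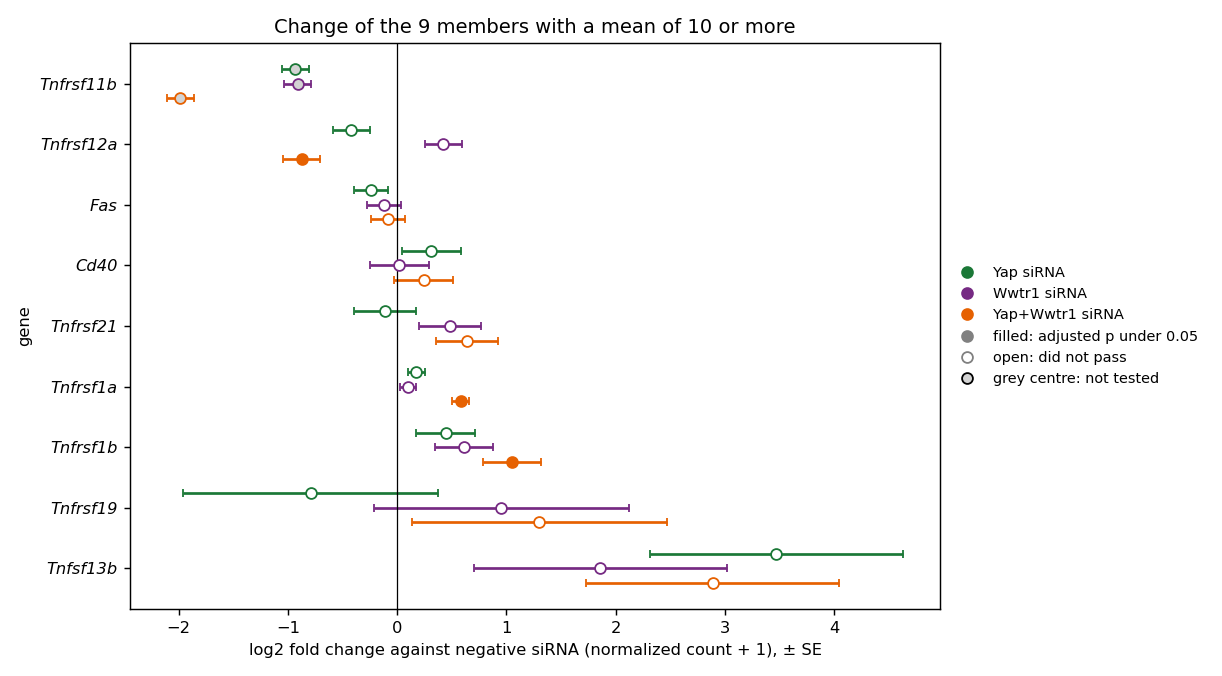
Log2 fold change (x axis) against control siRNA of the 9 members with a mean of 10 or more normalized counts (y axis), with points for the fitted difference and bars for ± SE of the fit. Filled points passed an adjusted p of 0.05, namely Tnfrsf12a (-0.87), Tnfrsf1a (0.58) and Tnfrsf1b (1.05) in the double knockdown, and Tnfrsf11b was not tested.

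The other ligands and receptors of the family were counted over lists taken by name. Of 16 other ligands 8 were present and 7 tested. Among these, 3 were called in the double knockdown (42.9%, against 32.8% of all genes), with a median log2 difference of 0.01 against 0.00 over all genes. Tnf itself rose by 1.28 and Eda, the ligand ectodysplasin, fell by 0.46 (limma adjusted p 0.0485 and 0.0226). The third was Ltb, a lymphotoxin subunit of immune cells, which passed the minimum of 10 only through the knockdown groups, so its difference of 3.07 (limma adjusted p 0.0493) supports nothing, and 2 of the other 6 were called. Ltb was at 3.08, 3.00 and 0 normalized counts in controls and at 15.9, 11.7 and 43.9 in the double knockdown. Tnf was at 22.6, 38.0 and 35.1 and at 45.7, 71.1 and 140, so both were highest in double knockdown replicate 3. There the summed macrophage markers (49395) and the 2 lymphocyte markers present of 9 (609) were also highest of the group, and their part in these ligands' values was not tested.

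The calls of these ligands depended on single libraries, and without control replicate 3 or double knockdown replicate 2 none of the 7 was called. The call of Ltb held in 1 of 12 fits leaving out a library (without Wwtr1 siRNA replicate 3) and the call of Tnf in 2 (without Yap siRNA replicate 3 or double knockdown replicate 1). Over these fits the Tnf difference ranged from 0.85 to 1.65, and it was not called without double knockdown replicate 3. The call of Eda was lost without control replicate 1 or 3 or double knockdown replicate 1 or 2. With Wwtr1 siRNA 1 ligand was called, Tnfsf13, which encodes the B cell factor APRIL, at 543, 504 and 434 normalized counts in controls and 213, 256 and 266 after Wwtr1 siRNA (log2 -1.01, SE 0.27, limma adjusted p 0.0399). Among the fits leaving out a library this call held in the 3 without a double knockdown library and in no other. With the replicate block and without the double knockdown libraries Tnfsf13 was called after Wwtr1 siRNA (limma adjusted p 0.000700) and after Yap siRNA (limma adjusted p 0.0395, from 0.363). Without double knockdown replicate 3 it was called in the double knockdown (log2 -1.03, from -0.62). The summed macrophage markers were also lower in all 3 Wwtr1 siRNA libraries (12045 to 20288) than in controls (23026 to 33224), as in double knockdown replicates 1 and 2 (7149 and 14213), and their part in the Tnfsf13 values was not tested. With all libraries and no block limma called none of the 7 after Yap siRNA.

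Of 18 other receptors 11 were present and 9 tested, and 3 rose in the double knockdown (33.3%). Tnfrsf9, the T cell costimulator 4-1BB, was at 38.0, 51.0 and 25.8 normalized counts in controls and at 207, 88.6 and 104 in the double knockdown (log2 1.72, SE 0.52, limma adjusted p 0.0246). Its call was lost without control replicate 1 or 3 or double knockdown replicate 1. Tnfrsf26 rose from 98.5, 43.0 and 54.8 to 165, 174 and 151 (log2 1.39, limma adjusted p 0.00237). Ltbr, the lymphotoxin beta receptor, rose from 8742, 7442 and 8150 to 11121, 11252 and 10784 (log2 0.45, limma adjusted p 0.000563). The median log2 difference of the 9 was -0.11, and limma called no other receptor with either single siRNA.

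Receptor adaptors and ubiquitin regulators numbered 19 tested, of which 7 rose and 1 fell in the double knockdown (42.1%, median 0.22). Leaving out 1 library gave 5 (without control replicate 1) to 9 called. Birc3, the ubiquitin ligase cIAP2, was at 227, 315 and 283 normalized counts in controls and at 554, 571 and 497 in the double knockdown (log2 0.98, SE 0.23, limma adjusted p 0.00599). Traf1 rose by 0.95 (limma adjusted p 0.0341), a call lost without control replicate 1 or 3 or double knockdown replicate 2 or 3. Rnf31, the catalytic subunit of the linear ubiquitin ligase, was at 1117, 1144 and 1109 in controls, 1731, 1628 and 1561 after Yap siRNA and 1757, 2117 and 1561 in the double knockdown. It rose by 0.68 in the double knockdown (limma adjusted p 0.00127) and by 0.54 after Yap siRNA (limma adjusted p 0.0285, lost without any control library or without Yap siRNA replicate 1 or 2). Traf7 fell by 0.51 and is named, like the other genes that fell below, after its value was seen.

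Among 17 death receptor effectors 6 rose and 2 fell in the double knockdown (47.1%, median -0.02). Leaving out 1 library gave 4 (without control replicate 3 or double knockdown replicate 2) to 8 called, with 5 without double knockdown replicate 1. Daxx, a Fas-binding nuclear protein, was at 1622, 1562 and 1471 normalized counts in controls and at 2578, 2738 and 2580 in the double knockdown (log2 0.76, SE 0.09, limma adjusted p 7.77e-05). It was also called at 0.36 with each single siRNA (limma adjusted p 0.0396 for Yap and 0.0235 for Wwtr1). The Yap siRNA call held in 4 of the 12 fits leaving out a library, those without Yap siRNA replicate 3, Wwtr1 siRNA replicate 3 or double knockdown replicate 1 or 3. The Wwtr1 siRNA call held in 8 and was lost without control replicate 2 or 3 or Wwtr1 siRNA replicate 1 or 2. Casp8, the initiator caspase of death receptors, rose by 0.63 (limma adjusted p 0.0156, lost without double knockdown replicate 1 or 2) and Casp6, an effector caspase, by 0.60 (limma adjusted p 0.00282). Bax, which promotes mitochondrial death, and Bcl2l1, which opposes it, fell by 0.43 and 0.44.

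Of 15 kinases, subunits and inhibitors of NF-kappaB 7 rose and 1 fell in the double knockdown (53.3%, median 0.25). Leaving out 1 library gave 5 (without control replicate 1) to 8 called. Bcl3, a nuclear protein of the IkappaB family, was at 1216, 1373 and 1042 normalized counts in controls and at 2189, 2442 and 2760 in the double knockdown (log2 1.03, SE 0.25, limma adjusted p 0.00780). Nfkbia, which encodes the inhibitor IkappaB alpha, was at 1204, 1810 and 1650 and at 2672, 2803 and 2493 (log2 0.79, limma adjusted p 0.0148, lost without control replicate 1). Nfkbiz, of the same family, rose by 0.63 (limma adjusted p 0.00775), and the kinase Chuk fell by 0.42. With Yap or Wwtr1 siRNA alone limma called none of the 15.

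Proteases that release or cleave TNF family proteins, and genes that promote or inhibit such proteases, were the last list. Of 6 genes 3 rose and 1 fell in the double knockdown (66.7%, median 0.47, against 32.8% of all genes). Without control replicate 1 or 3, 2 were called. Adam17, the protease that sheds TNF and both of its receptors, was at 3328, 3736 and 3388 normalized counts in controls, 3861, 3562 and 3208 after Yap siRNA, 3995, 3672 and 3941 after Wwtr1 siRNA and 7520, 6894 and 5842 with both. The double knockdown lay above every other library (log2 0.95, SE 0.10, limma adjusted p 4.48e-05), and the interaction was 0.77 (SE 0.14, limma adjusted p 0.0260). Furin, which cleaves precursors of several ligands, rose by 0.71 (limma adjusted p 8.87e-05), and Rhbdf2, a partner of Adam17, by 0.59 (limma adjusted p 0.0204, lost without control replicate 1 or 3 or double knockdown replicate 2). Rhbdf1 fell by 0.25. No list share was tested against that of all genes.

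With the replicate block and without the double knockdown libraries, more of these lists' genes were called with the single siRNAs. Among other ligands 2 were called after Yap siRNA and 2 after Wwtr1 siRNA, among other receptors 1 and 2, and among adaptors 2 and 2. Ltbr was among those receptors in both comparisons (limma adjusted p 0.0137 and 0.0389). The death receptor effectors had 1 and 3, the NF-kappaB list 1 and 0 and the proteases 0 and 2, beside 16.0% and 21.3% of all genes.

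**Figure D5:**
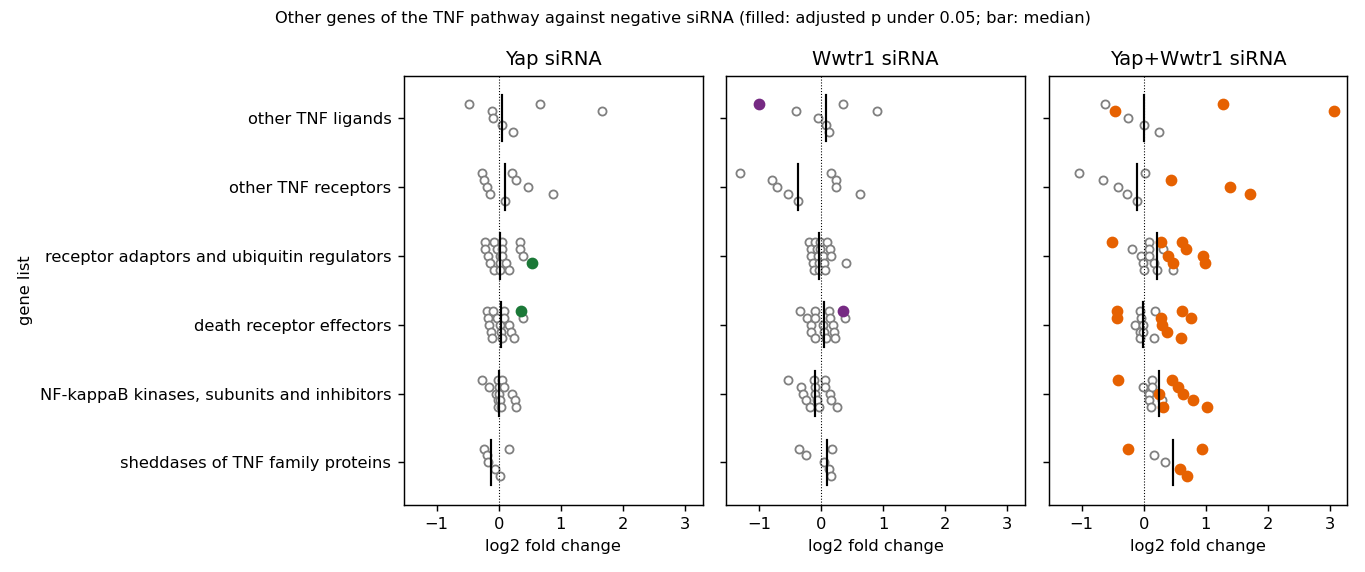
Log2 fold change against control (x axis) of the other genes of the TNF pathway by list (y axis) in 3 panels for Yap, Wwtr1 and Yap+Wwtr1 siRNA, with a point per gene, filled where the adjusted p was under 0.05, and a bar at the list median. Called genes are few in the single knockdowns and number 3 to 8 per list in the double knockdown.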

How the data were processed

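Total RNA of 12 fibroblast cultures was sequenced, 3 libraries in each of 4 siRNA groups taken from the sample labels. According to the labels and the study's methods, the authors trimmed reads with Trim Galore 0.6.5, aligned them to rn6 with HISAT2 2, assembled transcripts with StringTie and deposited counts divided by DESeq2 size factors, a signal value per gene. Tables of the authors' own fold changes and p-values were not used. All 147252 values were whole multiples of 1 step per library (tolerance 1e-06), which gave read counts back, and size factors recomputed from these counts over 11371 genes matched the steps in all 12 libraries at the same tolerance, 5 of which list no value of 1 read. The counts gave library totals of 33886920 to 41059839 reads. Normalization to a common total hides any change in total RNA per cell, and how reads of overlapping genes or of either strand were assigned is not given in the sources used here.

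The 11871 genes averaging 10 normalized counts or more entered limma 3.58.1 (R 4.3.3) as log2(normalized count + 1), with a mean-variance trend, all 12 libraries in the fit, Benjamini-Hochberg adjustment over all genes tested and a two-sided threshold of 0.05. The fit was tested on simulated data. Alternatives were DESeq2 1.42.0 and edgeR 4.0.16 on these read counts, besides pseudocounts of 0.1 and 10, a minimum mean of 100 or none, TMM scaling, only the compared groups, a replicate block, and leaving out each library. The interaction is the double knockdown minus both single knockdowns plus negative siRNA, on the log2 scale.

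The replicate numbers were taken to pair the negative, Yap and Wwtr1 siRNA libraries, because the methods describe repeats with separate litters and deviations of same-numbered libraries correlated at 0.104 to 0.276 in all 9 pairs. Those with double knockdown libraries ranged from -0.127 to 0.18. The repeats described in the methods cover that group too, and such weak correlations cannot show whether its libraries were paired. Block fits were made with and without that group. Members and gene lists were chosen with earlier results of these data known. Named genes were the 10 members, the targeted genes, the 5 genes most like Tnfrsf11b and, per pathway list and comparison with negative siRNA, up to 3 called genes of largest change. Tnfrsf11a, Tnfsf12 and the called genes Traf7, Bax, Bcl2l1, Chuk and Rhbdf1 lie outside this rule and were named after their values were seen. Promoter windows came from RefSeq (GRCr8), and rn6 coordinates were not used. All 10 members matched that annotation by symbol, but windows were available for 8 of them, without Tnfrsf11b and Cd40.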

Additional observations from a re-analysis of the deposited data

Results flagged for a closer look

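Tnfrsf12a drew attention because its differences with Wwtr1 siRNA had opposite signs without and with Yap siRNA (0.42 and -0.45, limma adjusted p 0.156 and 0.0996, neither called with all libraries and no block). With the replicate block and without the double knockdown libraries the first was called (limma adjusted p 0.00141), and without double knockdown replicate 2 the second was (limma adjusted p 0.0434). Without double knockdown replicate 3 the second was -0.31 and was not called (limma adjusted p 0.232). All 3 Wwtr1 siRNA libraries (5049, 5567 and 6696 normalized counts) lay above the negative siRNA mean of 4304, and all 3 double knockdown libraries (2286, 2917 and 1909) lay below the Yap siRNA mean of 3228, although they overlapped the Yap siRNA libraries (3099, 2743 and 3843). The difference between these log2 effects was -0.88 (SE 0.24, limma adjusted p 0.109, n = 3 per group), which did not pass, and DESeq2 gave an adjusted p of 0.0164. Leaving out each library in turn gave differences of -1.04 to -0.73, none of them called by limma.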

How the results depend on the processing

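Over 56 tested member differences, 483 of 499 values under the other settings and 640 of 672 with a library left out kept their direction and side of the threshold. The 56 include those of Tnfsf13b. Counts of members called that moved by over 1.5 times were those of the replicate block when double knockdown libraries were left out (3 for Yap siRNA, 3 for Wwtr1 siRNA and 2 for Yap against Wwtr1 siRNA, from 0, 0 and 1) and of DESeq2 (2 for double knockdown against Yap siRNA and 1 for the interaction, from 1 and 0). For double knockdown against negative siRNA 4 were called by DESeq2 (with Tnfrsf21), with only the compared groups (with Tnfrsf19) and with no filter (with Tnfsf10, whose controls are at 0). With a library left out the counts ranged from 3 to 4 for double knockdown against negative siRNA, from 1 to 2 against Yap siRNA, and from 0 to 2 for Yap against Wwtr1 siRNA (0 without Wwtr1 siRNA replicate 3). Against negative siRNA the member added was Tnfrsf19 without Yap siRNA replicate 2. Without negative siRNA replicate 2 or Wwtr1 siRNA replicate 2 it was Tnfsf13b, whose tests support nothing. The replicate block over all 12 libraries changed no member's call.

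The following differences turned in sign, none of them called. For Tnfrsf19, Yap siRNA gave 0.017 with a pseudocount of 10, 0.57 with edgeR and 0.57 with DESeq2 (from -0.79), and the interaction -0.23 with edgeR and -0.23 with DESeq2 (from 1.14). With a library left out, Yap siRNA ranged from -1.83 to 1.15 for Tnfrsf19 and from -0.21 to 0.038 for Tnfrsf21, Wwtr1 siRNA from -0.12 to 0.13 for Cd40, and double knockdown from -0.23 to 0.11 for Fas. Double knockdown ranged from -0.28 to 0.17 against Yap siRNA for Cd40 and, against Wwtr1 siRNA, from -0.27 to 0.38 for Tnfrsf21, from -0.11 to 0.23 for Fas and from -0.33 to 1.72 for Tnfsf13b. Yap against Wwtr1 siRNA ranged from -0.10 to 0.039 for Tnfrsf11b, from -0.37 to 0.064 for Tnfrsf1b and from -2.78 to 0.19 for Tnfrsf19. The interaction ranged from -0.24 to 0.28 for Tnfrsf1b, from -0.16 to 0.49 for Tnfrsf21, from -0.80 to 2.17 for Tnfrsf19 and from -0.30 to 0.15 for Cd40. The cause was not tested.

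Over all genes, 570 were called with Yap siRNA (1013 by DESeq2, 874 with the replicate block, 1904 with the block and no double knockdown libraries), 1064 with Wwtr1 siRNA (2527 with that last block) and 1044 for Yap against Wwtr1 siRNA (2680 with it). For double knockdown against Yap siRNA 1637 were called (774 with only the compared groups) and for the interaction 122 (231 with the replicate block, 500 by DESeq2). Leaving out 1 library gave 111 (without Yap siRNA replicate 1) to 764 genes with Yap siRNA, 548 (without Wwtr1 siRNA replicate 2) to 1419 with Wwtr1 siRNA, 434 (without Wwtr1 siRNA replicate 2) to 1409 for Yap against Wwtr1 siRNA, 758 (without Yap siRNA replicate 3) to 1873 for double knockdown against Yap siRNA, 1288 (without Wwtr1 siRNA replicate 3) to 2340 against Wwtr1 siRNA, 2745 to 4054 against negative siRNA, and 31 (without Wwtr1 siRNA replicate 2) to 160 for the interaction. TMM scaling shifted the median of all genes by at most 0.01. Depth limits Tnfsf10, Tnfsf13b and Tnfrsf19, which had 80 reads or fewer in every library.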
